A study of Mus musculus with 9 samples.

Results

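The genes described here are 35 genes that interferon of type I switches on, chosen as a list of symbols: the IFIT, OAS and Mx families, the ISG15 system, RNA and DNA sensors, the transcription factors Irf7, Irf9 and Stat2, and other induced genes. All 35 were among the 45664 symbols of the count table, and 33 of them passed the filter on low counts that left 13067 genes for testing; Oas3 and Ifi44 did not. They were measured by RNA sequencing in microglia, the resident macrophages of the brain, that were collected by flow sorting out of visual cortex in 9 male adolescents of the C57BL/6 strain, 1 library per mouse. The 4 EtOH mice received ethanol at 1.8 g per kg as a 20% v/v solution under the skin of the back, 2 injections a day from postnatal day 4 to day 9, which makes 3.6 g per kg each day. The 5 saline mice received the same volumes of saline on the same days. EtOH 1 to 4 were 35, 35, 30 and 30 days old when the cells were taken, and Saline 1 to 5 were 36, 30, 35, 29 and 30 days old, so that weeks without any ethanol lay between the last injection and the sort. All mice shared the sort for live CD11b-positive cells with low CD45. They came from 3 litters; which mouse came from which litter is unknown here.

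Type I interferons are secreted by cells that sense foreign or misplaced nucleic acid. They bind a receptor of the subunits Ifnar1 and Ifnar2, and the kinases Jak1 and Tyk2 then phosphorylate STAT proteins, among them Stat2, which enter the nucleus with Irf9 and bind the interferon-stimulated response element (ISRE) in the promoters of their target genes. Irf7 is itself a target and amplifies the response by driving further interferon transcription. In the healthy brain, weak tonic signalling keeps many of these genes at a low level in microglia, and Usp18, a brake on the receptor, is known to hold microglial signalling down.

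The ISRE is the sequence through which the STAT dimer and Irf9 reach their targets, so the stretches that hold it are shown for 6 members whose levels are described below. In promoter windows of RefSeq (GRCm38.p6, 250 bases before to 50 bases after the start), 25 members matched an entry; Dhx58, Ifi204, Usp18, Oas2, Mx1, Mx2, Parp9, Parp14, Rtp4 and Ifi27l2a had none. Its core, GAAA followed by any 2 bases and GAAA again, was searched on both strands with overlaps allowed. It was found in 12 of these 25 members (48.0%), beside 1079 of all 27025 genes in the table (3.99%). Capitals mark the ISRE core, on either strand.
Isg15, chr4:156200855-156200904 (minus strand): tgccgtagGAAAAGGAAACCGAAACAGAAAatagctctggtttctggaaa
Ifit1, chr19:34640784-34640833 (plus strand): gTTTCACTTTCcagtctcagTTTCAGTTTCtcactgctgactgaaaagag
Ifit3, chr19:34583387-34583436 (plus strand): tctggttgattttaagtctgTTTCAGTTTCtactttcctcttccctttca
Bst2, chr8:71537567-71537616 (minus strand): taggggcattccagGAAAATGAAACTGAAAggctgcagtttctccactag
Stat2, chr10:128270256-128270305 (plus strand): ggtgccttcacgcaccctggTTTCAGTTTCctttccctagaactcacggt
Trim30a, chr7:104465200-104465249 (minus strand): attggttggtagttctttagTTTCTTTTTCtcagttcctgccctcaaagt
The Isg15 stretch held 3 overlapping cores, the last of them spanning bases -66 to -57 relative to the start. Ifit1, Ifit3 and Bst2 had 2 cores each upstream of the start, not all of them within the stretch shown, whereas Stat2 had a single core at bases -222 to -213. The windows of Irf7, Irf9, Ifit2 and Oasl2 held no match to these letters, which says nothing of other ISRE spellings or of sites outside the window.

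Library totals ranged from 12816198 to 23723166 counts in EtOH mice and from 18016777 to 28859244 counts in saline mice. Levels are given as CPM, each gene's count scaled to a library total common to all libraries after correction by trimmed means (TMM). The cells carried the defining transcripts of microglia, with a sum over 10 markers (among them Csf1r, P2ry12, Tmem119 and Sall1) of 60120 to 71180 CPM in EtOH and 59835 to 68767 CPM in saline mice. Of the other cells the sort could have let through, monocytes and neutrophils had a sum over 8 markers of 4.84 to 16.0 and 4.69 to 8.50 CPM, with S100a8 and S100a9 at 0 counts in every library. A pair of libraries stood apart. In Saline 1 the neuronal markers summed to 2.35 CPM and the astrocyte markers to 3.53 CPM, against 15.7 to 42.7 and 79.2 to 237 CPM in the other 8. In EtOH 2, 21.5% of all genes tested lay more than 0.5 (log2) below the mean of the other libraries, against 3.24% to 10.7% in each of the other 8, so results on the members are given with and without it.

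The members were expressed at modest levels. The median of the mean level over 9 libraries was 9.83 CPM for the 33 members tested and 22.0 CPM for all genes tested, and 16 of the 33 members reached 10 CPM. Per kilobase of annotated exon, Bst2 stood highest, at 57.5 CPM per kb, followed by Ifi35 (19.2), Irf9 (17.9), Trim30a (15.9) and Parp9 (15.2). The genes most often used as readouts of an interferon response were low on the same scale, with Ifit1 at 1.62, Isg15 at 3.84, Mx1 at 1.53, Rsad2 at 0.548 and Oas2 at 0.201 CPM per kb. Summed over all 35 members, the level was 756, 881, 819 and 809 CPM in EtOH 1 to 4, against 779, 756, 758, 827 and 868 CPM in Saline 1 to 5. The groups overlapped, with EtOH 2 and Saline 5 highest.

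**Figure D1:**
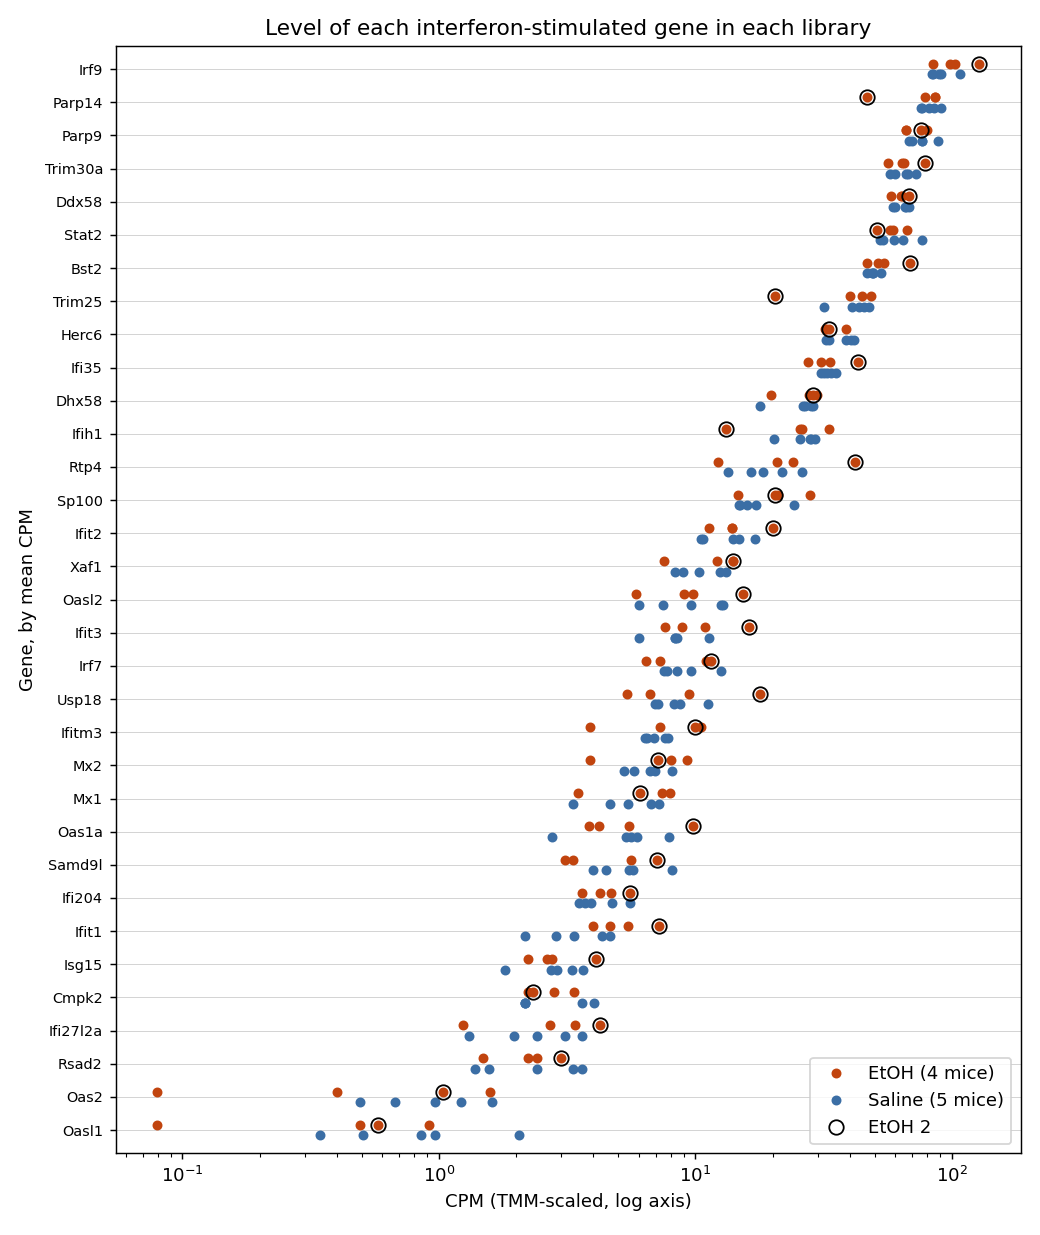
Level of the 33 tested members in each library, in CPM on a log axis, with EtOH mice as upper orange points, saline mice as lower blue points and EtOH 2 ringed; genes run down by mean level. The treatments overlap for every gene, and the ringed library is the highest of all for Usp18, at 17.8 CPM, and the lowest for Trim25, at 20.5 CPM.

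Of the transcription factors, Irf9, the DNA-binding partner of the STAT dimer (chromosome 14, 55603571 to 55610030, GRCm38), was the most abundant member. It was at 84.0, 128, 98.6 and 103 CPM in EtOH 1 to 4, against 89.0, 84.4, 83.6, 90.6 and 108 CPM in Saline 1 to 5. EtOH 2 was highest, and the other 3 EtOH libraries lay within the range of the saline mice. Its exons overlap those of Rnf31 on the same strand, so reads of this pair of genes may not be told apart there. Stat2 was at 66.8, 50.9, 57.4 and 58.8 CPM in EtOH 1 to 4, against 53.7, 52.3, 64.1, 76.6 and 59.5 CPM in Saline 1 to 5, with EtOH 2 lowest. Irf7 (chromosome 7, 141262706 to 141266481) was far lower, at 6.43, 11.4, 7.28 and 11.0 CPM in EtOH 1 to 4, against 8.47, 7.72, 7.51, 12.6 and 9.58 CPM in Saline 1 to 5. Both groups held high and low libraries, with Saline 4 highest and EtOH 1 lowest.

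Among the sensors, Ddx58, which encodes the RNA sensor RIG-I, was the steadiest member over all libraries, with an SD of log2 CPM within treatment of 0.0954. Without EtOH 2 that SD was 0.0889 for Ddx58 and lower for Bst2, at 0.0818. Ddx58 was at 63.5, 68.1, 57.6 and 63.6 CPM in EtOH 1 to 4, against 66.0, 68.0, 59.8, 58.8 and 65.4 CPM in Saline 1 to 5. Ifih1 encodes MDA5, a sensor of long double-stranded RNA, and was at 26.1, 13.1, 33.1 and 25.6 CPM in EtOH 1 to 4, against 29.2, 25.6, 28.2, 20.2 and 27.8 CPM in Saline 1 to 5. EtOH 2 was the lowest library, with Saline 4 next and EtOH 3 highest. Dhx58, the regulator LGP2 of the same family, averaged 26.5 ± 4.62 CPM in EtOH mice and 25.6 ± 4.47 CPM in saline mice (SD, n = 4 and 5), and was lowest in Saline 3 and EtOH 1. Ifi204, which encodes a DNA-binding protein of the p200 family, averaged 4.52 ± 0.818 CPM in EtOH mice and 4.28 ± 0.840 CPM in saline mice (SD, n = 4 and 5).

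The ISG15 system attaches a ubiquitin-like protein to newly made proteins. Isg15 itself (chromosome 4, 156199424 to 156200818) was low, at 2.22, 4.10, 2.64 and 2.77 CPM in EtOH 1 to 4, against 3.31, 2.72, 1.82, 2.88 and 3.65 CPM in Saline 1 to 5. Usp18, which takes ISG15 off again and blocks the interferon receptor, was at 5.40, 17.8, 6.65 and 9.44 CPM in EtOH 1 to 4, against 7.12, 6.93, 8.25, 8.69 and 11.1 CPM in Saline 1 to 5. EtOH 2 was far above the rest, while EtOH 1 and EtOH 3 were below every saline library. Herc6, the main ISG15 ligase of mice, averaged 33.9 ± 3.10 CPM in EtOH mice and 37.1 ± 4.17 CPM in saline mice (SD, n = 4 and 5). Trim25, a ubiquitin and ISG15 ligase that activates RIG-I, was at 48.5, 20.5, 44.5 and 40.0 CPM in EtOH 1 to 4, against 43.3, 31.6, 47.3, 40.7 and 45.3 CPM in Saline 1 to 5, and here EtOH 2 was the lowest library.

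The IFIT proteins bind viral RNA and lie side by side on chromosome 19. Ifit1 (34640871 to 34650009) was at 3.97, 7.21, 5.44 and 4.65 CPM in EtOH 1 to 4, against 2.86, 4.66, 2.16, 4.32 and 3.37 CPM in Saline 1 to 5. EtOH 1 and EtOH 4 lay within the saline range, and EtOH 3 and EtOH 2 above it. Ifit3 was at 8.89, 16.2, 10.9 and 7.61 CPM in EtOH 1 to 4, against 8.35, 8.31, 6.04, 8.46 and 11.3 CPM in Saline 1 to 5, with EtOH 2 highest, Saline 5 next and Saline 3 lowest. Ifit2 averaged 14.8 ± 3.71 CPM in EtOH mice and 13.4 ± 2.83 CPM in saline mice (SD, n = 4 and 5). Ifit3 has a close copy, Ifit3b, and reads shared by both may have been lost or split in counting.

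The OAS enzymes make the oligoadenylate that activates RNase L, and Oasl1 and Oasl2 are their relatives. Oasl2 was the most abundant of them, at 5.88, 15.3, 9.80 and 8.99 CPM in EtOH 1 to 4, against 9.59, 7.48, 6.04, 12.6 and 12.8 CPM in Saline 1 to 5. High and low libraries occurred in both groups, with EtOH 2 highest and EtOH 1 lowest. Oas1a averaged 5.83 ± 2.71 CPM in EtOH mice and 5.51 ± 1.84 CPM in saline mice (SD, n = 4 and 5), and its near copies on chromosome 5 make its counts uncertain. Oas2 and Oasl1 were near the limit of the counting, with 1 count each in EtOH 1, and averaged 0.895 and 0.754 CPM over the 9 libraries. Oas3 did not pass the filter. It had 9, 0, 19 and 7 counts in EtOH 1 to 4, against 2, 0, 0, 0 and 4 counts in Saline 1 to 5; a count of 0 allows up to 0.103 to 0.166 CPM in the libraries without one. Tested with no filter on counts, Oas3 had a log2 fold change of 3.04 ± 1.15 (SE; edgeR, adjusted p = 0.793), a value that rests on these few counts.

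Of the dynamin-like GTPases and nucleotide enzymes, Mx1 averaged 6.23 ± 1.99 CPM in EtOH mice and 5.47 ± 1.57 CPM in saline mice and Mx2 7.10 ± 2.31 CPM in EtOH mice and 6.54 ± 1.11 CPM in saline mice (SD, n = 4 and 5). C57BL/6 mice are known to carry a defective Mx1, and the annotation lists Mx2 as a polymorphic pseudogene. Rsad2, which encodes the antiviral enzyme viperin, averaged 2.27 ± 0.620 CPM in EtOH mice and 2.46 ± 1.00 CPM in saline mice (SD, n = 4 and 5). Its neighbour on chromosome 12, the nucleotide kinase gene Cmpk2, averaged 2.68 ± 0.522 CPM in EtOH mice and 2.83 ± 0.920 CPM in saline mice (SD, n = 4 and 5). The membrane protein genes differed widely in level. Bst2, which encodes tetherin, the protein that holds budding virus at the cell surface (chromosome 8, 71534255 to 71537456), was at 51.6, 68.6, 54.1 and 46.8 CPM in EtOH 1 to 4, against 52.8, 46.6, 49.1, 48.6 and 49.0 CPM in Saline 1 to 5. EtOH 2 was again highest and the saline mice lay within 46.6 and 52.8 CPM. Ifitm3, an inhibitor of virus entry, averaged 7.92 ± 3.05 CPM in EtOH mice and 7.01 ± 0.667 CPM in saline mice (SD, n = 4 and 5).

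The remaining members ranged widely in level. Parp14, an ADP-ribosyltransferase, was at 86.1, 46.8, 78.3 and 85.9 CPM in EtOH 1 to 4, against 76.2, 75.5, 85.1, 81.2 and 91.0 CPM in Saline 1 to 5, and EtOH 2 was the lowest by a wide margin. Parp9, its partner in the family, averaged 72.0 ± 7.08 CPM in EtOH mice and 75.8 ± 7.93 CPM in saline mice (SD, n = 4 and 5), and its exons overlap those of Dtx3l on the other strand. Trim30a, a mouse TRIM protein that restrains Toll-like receptor signalling, averaged 65.9 ± 9.10 CPM in EtOH mice and 64.7 ± 6.01 CPM in saline mice, and the nuclear body gene Sp100 21.0 ± 5.39 CPM in EtOH mice and 17.4 ± 3.91 CPM in saline mice (SD, n = 4 and 5). Rtp4, a chaperone of receptors that also restricts viral RNA, was at 12.2, 42.0, 24.1 and 20.7 CPM in EtOH 1 to 4, against 18.3, 16.5, 13.4, 21.8 and 26.0 CPM in Saline 1 to 5. The EtOH mice held both its highest library, EtOH 2, and its lowest, EtOH 1. Xaf1, a promoter of cell death, averaged 11.9 ± 3.06 CPM in EtOH mice and 10.6 ± 2.10 CPM in saline mice and Ifi35 33.7 ± 6.66 CPM in EtOH mice and 32.8 ± 1.78 CPM in saline mice (SD, n = 4 and 5). Ifi27l2a averaged 2.89 ± 1.27 CPM in EtOH mice and 2.48 ± 0.906 CPM in saline mice and Samd9l, a growth-restraining gene, 4.78 ± 1.89 CPM in EtOH mice and 5.56 ± 1.59 CPM in saline mice (SD, n = 4 and 5). Ifi44, the other gene under the filter, had 33 counts over the EtOH and 36 over the saline libraries.

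Ethanol against saline asked whether exposure in the first days of life left the interferon genes at another level in adolescence. No member passed the test. edgeR's quasi-likelihood test called 0 of 33 members and 0 of all 13067 genes (0%) at an adjusted p under 0.05; the smallest adjusted p was 0.963 in both sets. DESeq2 and limma-voom also called 0 genes, with 435 and 512 at an unadjusted p under 0.05. At an unadjusted p under 0.05 stood 1 of 33 members, Ifit1, and 386 genes in all (2.95%; 1.42% on the higher side). The 95% interval stayed inside a 2-fold change either way for 28 of 33 members, beside 79.3% of all genes.

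Fold changes lay on both sides of 0. They were above 0 for 20 of 33 members, beside 49.8% of all genes, with a median log2 fold change of 0.06 against -0.00068 for all genes. The range ran from -0.82 (Oasl1) to 0.62 (Ifit1). Ifit1 averaged 5.32 ± 1.40 CPM in EtOH mice and 3.47 ± 1.03 CPM in saline mice (SD, n = 4 and 5), a log2 fold change of 0.62 ± 0.27 (SE; 95% interval 0.04 to 1.20; edgeR, adjusted p = 0.963). Ifit3 had one of 0.36 ± 0.23, Sp100 of 0.27 ± 0.19, Irf9 of 0.18 ± 0.12 and Bst2 of 0.17 ± 0.11. Single libraries moved these values: Irf9 had 0.063 and Bst2 0.043 without EtOH 2, and Irf9 had 0.28 without EtOH 1. Sp100 had 0.11 without EtOH 3, 0.41 without EtOH 1 and 0.42 without Saline 5. Oasl1, at its very low level, had one of -0.82 ± 0.62 (95% interval -2.18 to 0.55), and of -0.34 without Saline 4.

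Ddx58 and Parp9 had the narrowest intervals. For Ddx58 the log2 fold change was -0.01 ± 0.08 (95% interval -0.19 to 0.17) and for Parp9 -0.07 ± 0.10 (-0.29 to 0.14). Trim30a had one of 0.03 ± 0.11, Herc6 of -0.13 ± 0.11, Ifi35 of 0.04 ± 0.12 and Dhx58 of 0.06 ± 0.16. For Stat2 it was -0.07 ± 0.12, and for Irf7 -0.01 ± 0.22 (-0.49 to 0.47). Ifih1, Trim25 and Parp14, 3 of the 4 members for which EtOH 2 was the lowest library, had -0.10 ± 0.22, -0.12 ± 0.22 and -0.14 ± 0.16. No member had all 4 EtOH libraries above all 5 saline libraries (0.658% of all genes did), and none had all of them below (0.628%).

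**Figure D2:**
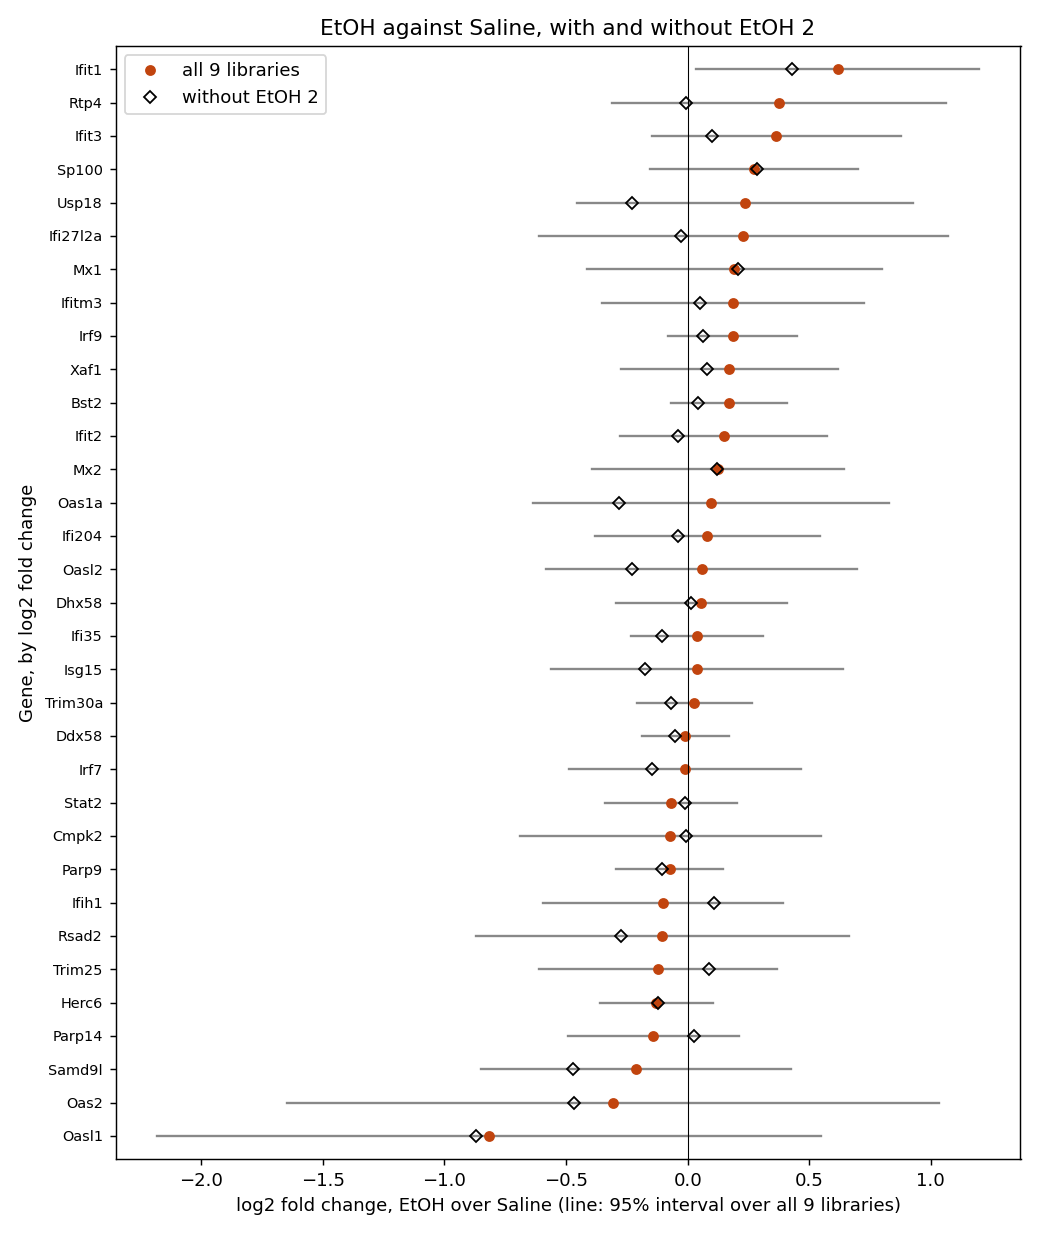
Log2 fold change of EtOH over Saline for the 33 tested members, as orange points with lines for the 95% interval over 9 libraries and open diamonds for the value without EtOH 2. The diamonds of Rtp4 and Usp18, at -0.01 and -0.23, lie left of their points, and those of Ifih1 and Trim25 lie to the right.

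Leaving out EtOH 2 shifted the balance of the members. Without it, 13 of 33 were above 0 (49.6% of all genes were), with a median log2 fold change of -0.03 against -0.0013 for all genes, and 0 of 33 members were under the unadjusted threshold (2.76% of all genes). Adjusted, 0 members and 0 of 13281 genes (0%) passed. The balance did not hang on EtOH 2 alone. With Saline 3 left out instead, 16 of 33 were above 0 and the median was -0.011. Over all 9 libraries limma-voom with sample weights gave 16 of 33 and -0.010. Each other library left out singly gave 19 to 24 members above 0. Rtp4 had a log2 fold change of 0.38 ± 0.31 with EtOH 2 and -0.01 ± 0.24 without it. Usp18 had 0.24 ± 0.31 with it and -0.23 ± 0.22 without, and Ifit3 0.36 ± 0.23 and 0.10 ± 0.20. On the opposite side, Ifih1 had 0.11 ± 0.13, Trim25 0.09 ± 0.13 and Parp14 0.03 ± 0.08 without EtOH 2. Ifit1 kept the largest value of the members, 0.43 ± 0.28. No member had its 3 remaining EtOH libraries all above, or all below, the saline libraries (1.40% and 1.33% of all genes).

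EtOH 2 was the highest of the 9 libraries for 16 of 33 members (48.5%), beside 22.6% of all genes tested. Against the mean of the other 8 libraries, Usp18 was 1.18 higher there on the log2 scale, Rtp4 1.17, Oas1a 0.97, Ifit1 0.91 and Ifit3 0.91. Members of the same response stood on the other side, with Trim25 at -1.04, Ifih1 at -1.02, Parp14 at -0.81 and Stat2 at -0.25. EtOH 2 was the lowest library for these 4 of 33 members (12.1%), a smaller share than the 25.7% of all genes tested. The 4 members more than 0.25 below had a median exon length of 7046 bases, and the 20 members more than 0.25 above one of 3176 bases. After removal of each library's trend of log2 CPM on GC content and length, Usp18 was at 1.10 and Rtp4 at 1.06, while Trim25 was at -0.84, Ifih1 at -0.88, Parp14 at -0.52 and Stat2 at 0.05.

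Other measures moved with EtOH 2 as well. Lymphocyte markers summed to 68.9 CPM there, against 44.8 to 57.4 CPM in the other 8 libraries, with Cd79b the 1 marker of 8 past the count filter and Cd3e, Cd3g and Nkg7 at 0 counts in every library. Markers of plasmacytoid dendritic cells, which make much interferon, summed to 20.6 CPM in EtOH 2 and 21.4 CPM in EtOH 4, against 12.2 to 17.7 CPM elsewhere, with Klk1 at 0 throughout. Pacsin1 carried most of that sum, with 17.5 CPM in EtOH 2 and 19.7 CPM in EtOH 4, while Ccr9 was at 0.0829 CPM in EtOH 2. The highest Pacsin1 level, in EtOH 4, went with the highest neuronal marker sum (42.7 CPM). The lowest, 10.3 CPM in Saline 1, went with the lowest neuronal sum (2.35 CPM). In EtOH 2 the neuronal sum was 16.4 CPM. Cox6a2, the remaining marker of that list, was at 3.07 CPM in EtOH 2, against 1.20 to 1.55 CPM in the other 8 libraries. Whether plasmacytoid dendritic cells were among the sorted cells was not tested. Endothelial and pericyte markers had their lowest sum in EtOH 2, at 59.5 CPM against 69.1 to 87.5 CPM in the other 8 libraries, and so had border macrophage markers, at 39.1 CPM against 40.1 to 91.3 CPM. Single genes carried most of these sums in EtOH 2, Pecam1 with 48.4 CPM and Mrc1 with 37.1 CPM. The sum of microglial markers was also highest in EtOH 2. Its RNA integrity number was 9.2, within the 9 to 9.9 of all libraries. Their part in the result was not tested, and fewer cells of a type cannot be told apart from less RNA per cell in sorted bulk samples.

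At the low end, EtOH 1 was the lowest library for 12 of 33 members (36.4%; 9.81% of all genes) and Saline 3 for 7 (21.2%; 9.29%). Their median deviations over the members were -0.29 and -0.22 (log2), against 0.41 in EtOH 2 and 0.19 in Saline 5. So 1 high and 1 low library stood in each treatment group. EtOH 1 and Saline 3 were both 35 days old with library names ending in 1-5-16, as was EtOH 2.

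**Figure D3:**
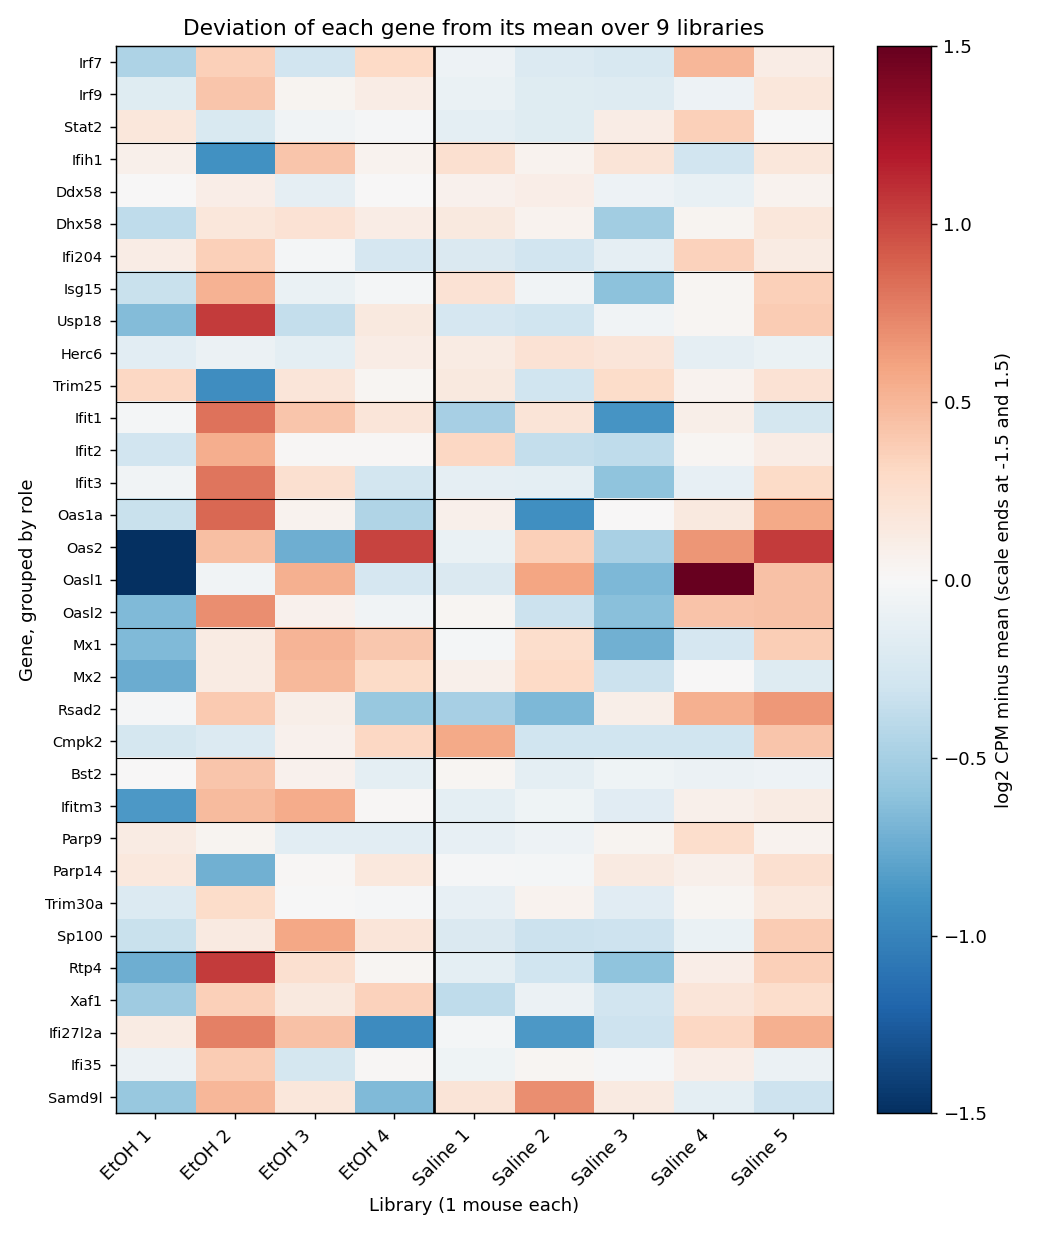
Deviation of log2 CPM from each member's mean over the 9 libraries, with members in rows grouped by role and libraries in columns, EtOH left of the line and saline right of it; red is above and blue below the mean. EtOH 2 is red for most rows and blue for Ifih1, Trim25 and Parp14, and EtOH 1 and Saline 3 are blue for most, with median deviations of -0.29 and -0.22 from the other libraries.

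The spread between mice had a larger median over the members than over all genes, and likewise among the abundant ones. The SD of log2 CPM within treatment had a median of 0.37 over the 33 members, beside 0.24 over all genes. Among genes of at least 10 CPM it was 0.24 for 16 members and 0.17 for 8480 genes, and without EtOH 2 it was 0.18 and 0.14. Below 10 CPM it was 0.47 for 17 members and 0.50 for 4587 genes, with no matching for level inside that range. Each gene's coefficient of variation in edgeR was also divided by the trend at its level. The median of that ratio was 1.04 for the 33 members and 0.84 for all genes. Rtp4 was the most variable of the members above 10 CPM, with an SD of 0.55 (0.42 without EtOH 2). Ddx58 and Parp9 were the least variable over all libraries. Without EtOH 2 Bst2 was the least, at 0.082, with Ddx58 at 0.089 and Parp9 at 0.15.

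Covariation between mice was read from log2 CPM over the 9 libraries. The median Pearson's r over the 528 pairs of members was 0.26, beside -0.005 over all pairs of genes tested, and 67.8% of member pairs were above 0, beside 49.6%. Without EtOH 2 the median was 0.19 (65.3% above 0), without Saline 1 it was 0.28, as deviations from the mean of each treatment it was 0.31, and with the trend on GC content and length removed it was 0.29 (0.035 over all pairs). These are descriptions: pairs share libraries and depth, and libraries with the same name suffix are too few (4) for a value within them.

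Rtp4 and Oasl2 stood at the centre of this covariation. Rtp4 had the highest median r with the other 32 members, 0.60 (0.57 without EtOH 2), followed by Oasl2 with 0.59 (0.54). The pairs named next were chosen from all 528 after their values were seen. Rtp4 and Oasl2 had an r of 0.93 and a rho of 0.97, and an r of 0.93 without EtOH 2. Rtp4 and Irf9 had an r of 0.94 (rho 0.93), and 0.86 without EtOH 2. Dhx58 and Mx1 had one of 0.90 (rho 0.78), and 0.90 without that library, while Ifi204 and Rsad2 had 0.87 (rho 0.88) and 0.88. Stat2 went with Parp9 (0.73, rho 0.67; 0.87 without EtOH 2) and had a median r of -0.32 to the other members, or -0.12 without EtOH 2.

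Trim25, Parp14 and Ifih1 had high r among themselves, with lower values once EtOH 2 was left out. Trim25 and Parp14 had an r of 0.92 (rho 0.72) over 9 libraries and 0.57 without EtOH 2, and Ifih1 and Trim25 0.85 (rho 0.63) and 0.33. Their median r with the other members was -0.43 for Trim25, -0.41 for Ifih1 and -0.39 for Parp14, and -0.13, 0.02 and 0.05 without that library. Ifit1 had a median r of 0.39 over 9 libraries and 0.07 without EtOH 2, and Bst2 0.30 and -0.02.

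Irf7, as the amplifier of the response, was set against all other genes tested. Its r was above 0 for 27 of 32 members, beside 49.5% of all 13066 genes, with a median of 0.35 against -0.0046. In exact permutation tests over the 362880 pairings of the 9 libraries, two-sided, 0 members and 0 genes passed after adjustment over all 13066 genes (0%; smallest adjusted p = 0.972), and 0 with Spearman's rho (smallest adjusted p = 1). With an unadjusted p under 0.05 stood 6 of 32 members on the positive side, beside 2.10% of all genes, and 1 on the negative side, beside 1.68%. With rho 6 of 32 members were under that threshold in either direction, beside 484 of all 13066 genes.

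The 6 members closest to Irf7 were Oas2, Oasl2, Xaf1, Usp18, Rtp4 and Ifi35. Oasl2 had an r of 0.79 (exact permutation p = 0.0140) and a rho of 0.70 (p = 0.0433), with an r of 0.64 when EtOH 2 and Saline 4, the libraries farthest from the median of Irf7, were left out. Xaf1 had an r of 0.76 (exact permutation p = 0.0237), a rho of 0.75 (p = 0.0255) and 0.74 without them. Usp18 had one of 0.74 (exact permutation p = 0.0169), a rho of 0.83 (p = 0.00827) and 0.84 without them. Oas2 reached 0.80 (exact permutation p = 0.00610; rho 0.83, p = 0.00827; 0.89 without them), but from very few counts. Rtp4 and Ifi35 had r of 0.67 and 0.65 (exact permutation p = 0.0430 and 0.0443; rho 0.62 and 0.68, p = 0.0857 and 0.0503), and 0.62 and 0.37 without them. All 6 had an adjusted p of 0.985.

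At the other end stood Ifih1 with an r of -0.65 (exact permutation p = 0.0433; rho -0.70, p = 0.0433; r of -0.25 without the 2 libraries), Trim25 with -0.47 (exact permutation p = 0.204; rho -0.67, p = 0.0589) and Parp14 with -0.34 (exact permutation p = 0.428; rho -0.20, p = 0.613). The value for Parp14 was 0.17 without EtOH 2. Bst2 had an r of 0.18 with EtOH 2 and -0.49 without it. The genes outside the list with the highest r to Irf7 were Dcxr (0.88), Ccdc80 (0.88), Hebp2 (0.87), Atp5j2 (0.87) and Hypk (0.87), all with an adjusted p of 0.972 or above in the same exact permutation test. Exons of Irf7 overlap those of Phrf1 on the other strand, and whether counting used strand is unknown here.

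**Figure D4:**
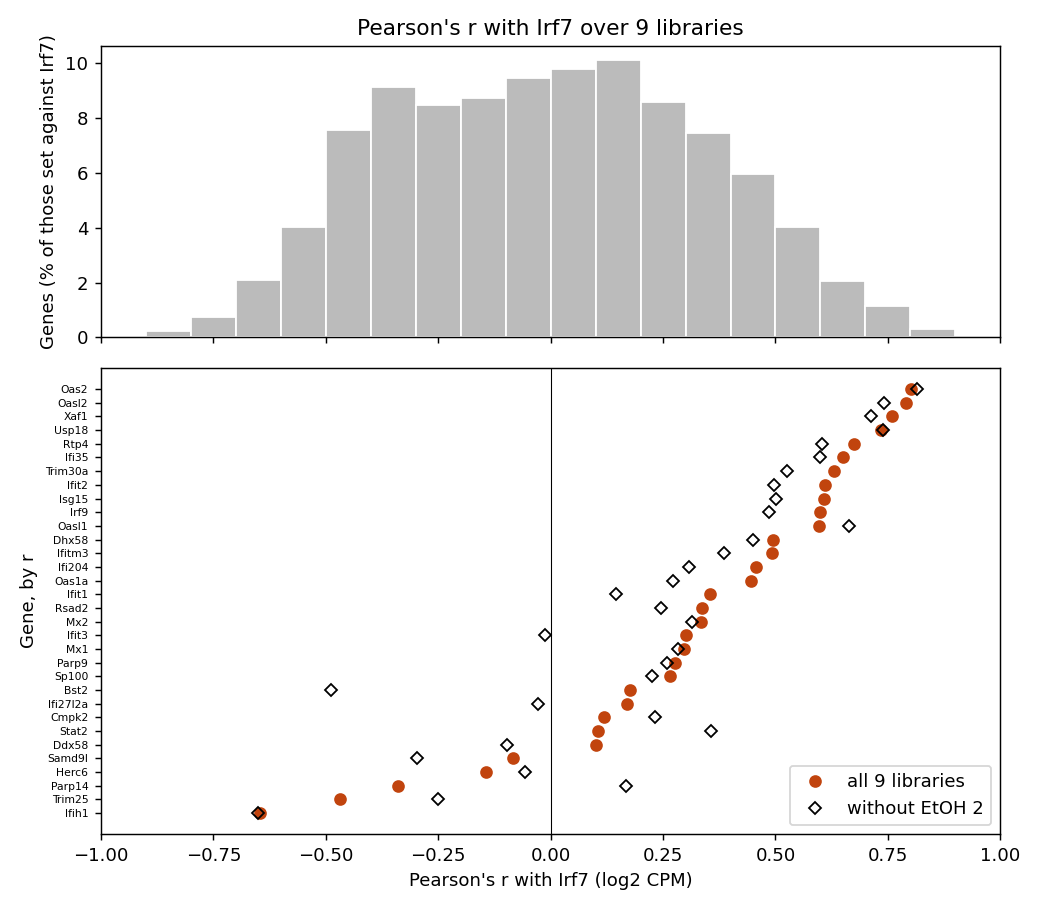
Pearson's r of log2 CPM with Irf7 over the 9 libraries: the share of all 13066 genes in bins of 0.1 (top, percent) and each member (bottom), with orange points for all libraries and open diamonds without EtOH 2. Of 32 members 27 lie right of 0, and Bst2, Ddx58, Ifi27l2a, Ifit3 and Parp14 change side without EtOH 2.

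Upstream of the members, the ligands were at or near 0 counts. Of 11 interferon genes of type I looked for, 9 had 0 counts in every library, Ifnb1 had 2 counts and Ifnz 4 counts over all 9, where a count of 0 allows up to 0.238 CPM in the shallowest library. The receptor and its kinases were abundant. For Jak1 all EtOH libraries (417 to 480 CPM) lay below all saline libraries (488 to 535 CPM), as for 0.628% of all genes. Jak1 averaged 459 ± 29.01 CPM in EtOH mice and 500.3 ± 19.5 CPM in saline mice (SD, n = 4 and 5), a log2 fold change of -0.12 ± 0.07. Ifnar2 averaged 226 ± 14.4 CPM in EtOH mice and 218 ± 22.1 CPM in saline mice (SD, n = 4 and 5), one of 0.05 ± 0.09. Tyk2 had one of -0.25 ± 0.12, and of -0.13 without EtOH 2, where it was at 85.0 CPM against 123 to 149 CPM in the other 8 libraries. Ifnar2 had 0.016 without that library. None of these 3 genes passed edgeR's test (adjusted p = 0.963 to 0.966).

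Of 12 tested genes that lead to interferon production, 0 passed and 5 were above 0, beside 49.8% of all genes. Their median log2 fold change was -0.05. Tmem173, which encodes the DNA-response adaptor STING, averaged 690 CPM over the libraries (log2 fold change 0.09 ± 0.08, and 0.044 without EtOH 2) and Tlr7, a sensor of single-stranded RNA, 474 CPM (-0.19 ± 0.12). Mavs, the adaptor of RIG-I, had one of 0.11 ± 0.07. Of 12 negative regulators 0 passed and 4 were above 0, beside the same 49.8% of all genes, with a median of -0.05. Ptpn6, a phosphatase, had a log2 fold change of 0.15 ± 0.12, Adar, the RNA editing enzyme, of -0.12 ± 0.13 (-0.0061 without EtOH 2), and Socs3, with the smallest p of the list, of -0.44 ± 0.14 (edgeR, adjusted p = 0.963).

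A further list of 48 induced genes, of which 41 were tested, came next. 0 passed. Above 0 lay 28 of them (median 0.07, log2), beside 49.8% of all genes tested. With EtOH 2 left out 25 did so (median 0.01), beside 49.6% of all genes. Ly6e, a surface protein gene, averaged 1175 CPM with a log2 fold change of 0.07 ± 0.09 (0.0047 without EtOH 2), and Lgals9, which encodes galectin-9, 367 CPM with one of 0.15 ± 0.10 (0.050 without EtOH 2). Ube2l6, the enzyme that carries ISG15 to its ligases and the gene with the smallest p of that list, had one of 0.30 ± 0.14 (0.28 without EtOH 2).

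The members' balance differed in value between cohorts with and without EtOH 2. Among the older mice, which include it, 25 of 33 members lay above 0 and their median was 0.19 (log2). Over all genes the median there was -0.0046. Among the younger mice, 14 of 33 were, with a median of -0.02 against -0.0019 over all genes. Libraries with names ending in 1-5-16, again with EtOH 2, gave 22 of 33 and 0.12, and those ending in 1-6-16 gave 16 of 33 and -0.02. The medians over all genes were -0.015 for names ending in 1-5-16 and 0.0020 for those ending in 1-6-16. The interaction of treatment with age cohort, tested in edgeR over all genes, called 0 of 13067 genes (416 at an unadjusted p under 0.05) and 0 of 33 members (0 unadjusted), with a smallest adjusted p of 0.959. The older EtOH mice are EtOH 1 and EtOH 2 alone, and the older saline mice are Saline 1 and Saline 3. EtOH 1 and Saline 3 are also among the libraries ending in 1-5-16. Both were low for the members, with median deviations of -0.29 and -0.22. No cohort was fitted without EtOH 2, so the part of single libraries in the cohort values was not tested.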

How the data were processed

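RNA from sorted microglia of 9 mice (4 EtOH, 5 saline) was sequenced, 1 library per mouse. The authors deposited 1 table of unnormalised counts for gene symbols. Tools named per the submitters' processing notes are HTSeq 0.6.1, STAR 2.4.2a and Trimmomatic 0.32, with build GRCm38.p4; their settings, the read layout and the strand are unknown here. Counts of overlapping genes and close copies are therefore uncertain.

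Genes were kept by filterByExpr (minimum count 10, minimum total 15), scaled by TMM and tested with edgeR 4.0.16 (R 4.3.3; quasi-likelihood F test, robust, Benjamini-Hochberg over all genes, threshold 0.05). The procedure was tested on simulated data. An SE is the absolute log2 fold change divided by the root of F. P-values measure the spread between mice, sorting and library preparation together. They and the intervals treat the mice as independent and do not account for litter, which is unknown for each mouse. Correlations used log2 CPM (prior count 2) and exact permutations (Python 3.11.15, scipy 1.17.1). Positions, GC content and exon length are from GENCODE M21 (12408 of 13067 genes matched). The 95% intervals of fold changes carry the spread between mice; the limits given for counts of 0 cover counting error only.

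Alternatives were DESeq2 1.42.0, limma-voom (limma 3.58.1), RLE size factors, other filters, each library left out, Saline 1 and EtOH 2 left out, age cohort or name suffix as covariate or alone, a replicate block, and removal of GC and length trends (loess, span 0.3). Fold changes were named for the 12 members of highest level and the 6 of smallest p, and further members where the text turns on them. The members and lists were chosen with earlier results of these data known. Results on some genes are not reported here.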

Additional observations from a re-analysis of the deposited data

Results flagged for a closer look

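A gap test on the libraries of each group, applied to the level of each of the 33 tested members in both groups (66 groups), set 2 values apart from the rest of their group; chance gives about 1 in 20. Dhx58, which encodes the RNA sensor regulator LGP2, was low in Saline 3, at 17.8 CPM against 26.3 to 28.7 CPM in the other saline mice. Sp100, of the nuclear bodies, was high in Saline 5, at 24.2 CPM against 14.8 to 17.3 CPM. EtOH 2 was set apart for 0 of the 33 members by this test, which in a group of 4 needs a gap of 0.829 of the range.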

How the results depend on the processing

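In each of 23 alternatives 0 genes and 0 members passed the adjusted threshold. Leaving out each library in turn moved the median log2 fold change of the members between -0.03 and 0.17 and the number above 0 between 13 and 24, the lowest values being those without EtOH 2. Without EtOH 1, 5 of 34 members tested were at an unadjusted p under 0.05, Irf9, Ifit1, Ifitm3, Sp100 and Rtp4, beside 474 of 13343 genes (3.55%). Sign changes are listed for the members named by level or by smallest p. The log2 fold changes concerned had intervals that included 0 over all 9 libraries, and the cause was not tested. These were the values: with limma-voom Ifih1 had 0.074, Trim25 had 0.029, Trim30a had -0.055 and Ifi35 had -0.090. With Saline 1 and EtOH 2 both left out Ifih1 had 0.15, Trim25 had 0.10, Parp14 had 0.0034, Trim30a had -0.094 and Ifi35 had -0.12. With the name suffix as covariate Ddx58 had 0.0055. In younger mice alone Ifih1 had 0.25, Trim25 had 0.11, Ifit3 had -0.021, Trim30a had -0.097 and Ifi35 had -0.13. In older mice alone Ddx58 had 0.066 and Parp9 had 0.11. In libraries ending in 1-5-16 alone Ddx58 had 0.15. In libraries ending in 1-6-16 alone Stat2 had 0.056, Ifih1 had 0.13, Trim25 had 0.14, Ifit3 had -0.083, Trim30a had -0.12 and Ifi35 had -0.088. With GC and length trends removed Ddx58 had 0.030 and Trim30a had -0.0081. Of further members with fold changes given above, Irf7 had 0.018 in that setting, and without EtOH 2 Usp18 had -0.23 and Rtp4 had -0.0087. Other settings are not listed for them. Over the libraries left out in turn, values ran for Ddx58 from -0.051 to 0.033, Dhx58 from -0.049 to 0.18, Ifi35 from -0.11 to 0.13, Ifih1 from -0.28 to 0.11, Parp14 from -0.22 to 0.026, Stat2 from -0.13 to 0.026, Trim25 from -0.25 to 0.086 and Trim30a from -0.069 to 0.10. Those that kept their sign ran for Irf9 from 0.063 to 0.28, Ifit1 from 0.43 to 0.75, Ifit3 from 0.10 to 0.51, Bst2 from 0.043 to 0.24, Sp100 from 0.11 to 0.42, Herc6 from -0.19 to -0.086, Parp9 from -0.12 to -0.013 and Oasl1 from -1.20 to -0.34. Same-numbered mice did not deviate together (r of -0.09, 0.01, -0.17 and -0.08 over 8480 genes), so the numbers do not pair them; with a replicate block, which drops Saline 5, 0 genes were called, 23 members were above 0 with a median of 0.12, and Ddx58 had 0.0022. The median r of members with Irf7 was 0.41 on deviations from treatment means and ran from 0.30 to 0.50 over libraries left out in turn; alternatives on this correlation beyond the planned ones were chosen after seeing the data. The scarce members limit the reach of these data, since 17 of 33 were under 10 CPM.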
